A study of Danio rerio with 23 samples.

Results

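The effect of heat-shock-driven wnt8a on the zebrafish embryo was compared between an earlier and a later time of development, as the difference of 2 differences. For every gene, the log2 fold change of hs:wnt8a embryos over their siblings at 5.5 hours post fertilisation (hpf) was subtracted from the same fold change at 7.5 hpf. This difference used 11 of the 23 libraries of the series: 3 of siblings and 2 of transgenic embryos at 5.5 hpf, and 3 of each at 7.5 hpf. It was taken over all genes tested except wnt8a_1 and wnt8a_2, the pair of identifiers that carry the symbol of the transgene, which left 19502 genes. The error of each difference came from a fit of all 23 libraries, which share 1 estimate of the spread; the other 12 are of hs:dkk1b/+ crosses, transgenic embryos and siblings, shocked for 60 minutes at 37 °C. A negative difference means that the transgenic embryos stood lower against their siblings, or less high, at 7.5 hpf than at 5.5 hpf.

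RNA came from homogenised whole embryos of crosses between hs:wnt8a/+ carriers and wild-type fish. Transgenic embryos, in which a heat-shock promoter drives the Wnt ligand wnt8a wherever the shock reaches, were picked by their fluorescence. The controls were siblings labelled as wild-type in genotype, called siblings here, which received the same shock of 30 minutes at 39 °C in groups of 10 in PCR tubes and the same recovery at 29 °C, so that both genotypes carry any response to heat. The titles name the times 5.5 and 7.5 hpf and another field names them 5 and 7 hpf, and the labels do not settle which is the shock and which the harvest; the title values serve as names here. Embryos came from several pairs of fish, but separate clutches for the libraries of a group are not stated, so the spread that the p-values rest on may partly be technical.

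Wnt ligands bind Frizzled receptors and, through stabilised β-catenin, switch on target genes, among them inhibitors that dampen the same signal. In the vertebrate gastrula, Wnt8 made at the embryonic margin acts on the neural plate as a posteriorising signal: the forebrain and eye field form where Wnt activity is low, and hindbrain and spinal cord where it is high. The title of the series concerns this control of neural plate pattern over time, and the comparison asks which genes answered differently to the ligand at the earlier and the later time.

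Total counts of the 11 libraries ran from 16266221 to 20467185 (median 17664481). Levels are given in CPM (read counts as a share of the library), scaled to library size with TMM factors, and are compared only within a gene, since they are not scaled to gene length. In transgenic embryos wnt8a_1 (ENSDARG00000052910) stood at 3447 and 2664 CPM at 5.5 hpf and at 3647, 4218 and 3092 CPM at 7.5 hpf. In siblings it stood at 588.0, 391.7 and 721.5 CPM at 5.5 hpf and at 179.7, 2.33 and 14.8 CPM at 7.5 hpf. The sibling mean was therefore 18.6% of the transgenic mean at 5.5 hpf and 1.80% at 7.5 hpf, so the contrast in the ligand's own transcript was wider at the later time. The other identifier, wnt8a_2, had means of 18.1 CPM in siblings and 18.7 CPM in transgenic embryos at 5.5 hpf. At 7.5 hpf its means were 19.7 and 12.9 CPM. In the 12 libraries of the hs:dkk1b crosses wnt8a_1 was at 3.14 to 9.56 CPM, so all 3 siblings of hs:wnt8a at 5.5 hpf, and replicates 1 and 3 at 7.5 hpf, stood above that range. Those crosses are of another line and had another shock, so they are no matched reference for wild-type embryos. Against them, the level in hs:wnt8a siblings at 5.5 hpf was higher than the label wild-type would give. The early effect of every gene is measured against these siblings. The files do not separate transcripts of the transgene from those of the embryo's own wnt8a, and whether carriers were among the embryos labelled wild-type cannot be told from them. The part of these sibling levels in the differences below was not tested.

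The first principal component of log2 CPM, over 8968 genes, held 77.0% of the variance and separated the times. At 5.5 hpf siblings lay on it at -41.7, -24.5 and -43.7 and transgenic embryos at -46.7 and -47.6. At 7.5 hpf siblings lay at 23.7, 42.6 and 40.6 and transgenic embryos at 24.8, 32.15 and 40.3. Both transgenic libraries at 5.5 hpf thus lay further from the later time than every sibling. The part of this offset in the differences below was not tested. On the second component, 3 libraries stood apart from the other 8: replicate 2 of the siblings at 5.5 hpf at -22.4, and replicate 1 of both siblings and transgenic embryos at 7.5 hpf at -25.5 and -25.8, against 4.34 to 14.2 elsewhere. At 7.5 hpf the library that stood apart was matched by its same-numbered partner, and at 5.5 hpf it stood in the siblings alone. For genes whose difference moved by over 1.5 times without these 3 libraries, the value without them is given too.

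**Figure D1:**
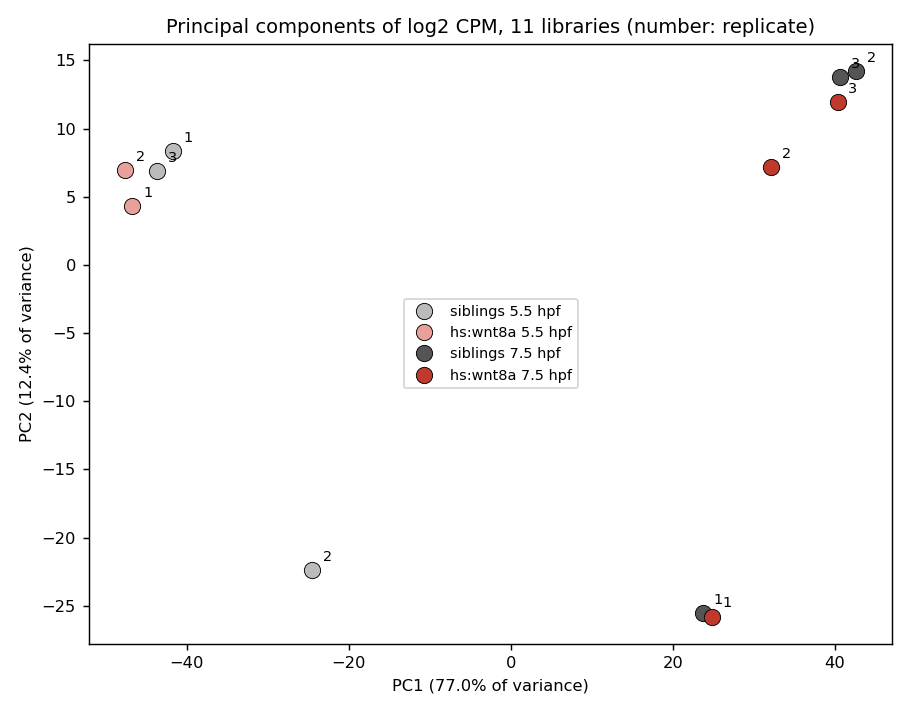
First and second principal components of log2 CPM of the 11 libraries, with colours for the groups and numbers for the replicates. The times separate along the horizontal axis (77.0% of the variance), and sibling replicate 2 at 5.5 hpf and both replicate 1 libraries at 7.5 hpf lie between -22.4 and -25.8 on the vertical axis, below all others.

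A single gene passed the test of the difference between times: six3b, a homeobox transcription factor of the anterior neural plate. With edgeR's quasi-likelihood test, Benjamini-Hochberg adjustment over all genes and a threshold of 0.05, it was the only one of 19502 (0.00513%). At an unadjusted p under 0.05 there were 339 genes (1.74%), of which 125 differed downward (0.641%) and 214 upward (1.1%). With no effect anywhere, and a spread that the fit describes well, a share of 0.05 of all genes would reach this level. The share seen was below that. Reaching this level is therefore no evidence of a difference by itself, here or in the gene lists below. Nor is a low share evidence that genes did not differ, since it also depends on how well the fit describes the spread. DESeq2 called 4 genes (0.0205%), six7, six3b and fzd8a downward and si:ch211-170d8.2 upward.

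The level of six3b (ENSDARG00000054879) in siblings was 8.87, 7.86 and 7.45 CPM at 5.5 hpf and 59.2, 78.7 and 80.6 CPM at 7.5 hpf. Transgenic embryos held 4.53 and 5.24 CPM at 5.5 hpf and 6.81, 6.37 and 4.05 CPM at 7.5 hpf. Siblings at 7.5 hpf thus stood far above all other libraries, while the transgenic libraries of both times covered one and the same low range, below every sibling library. The log2 fold change was -0.72 ± 0.31 (SE, adjusted p = 1 by edgeR) at 5.5 hpf and -3.66 ± 0.27 (SE, adjusted p = 5.85e-07 by edgeR) at 7.5 hpf. The difference was -2.94 ± 0.40 (SE, adjusted p = 0.00946 by edgeR), with a 95% interval, not adjusted over genes, from -3.78 to -2.11. Its direction was the same without any one library, but its adjusted p by edgeR rose to 0.0589 without sibling replicate 3 at 5.5 hpf, to 0.0689 without transgenic replicate 1 at 5.5 hpf and to 0.220 without transgenic replicate 2 at 5.5 hpf. Without the 3 libraries that stood apart it was -3.19 ± 0.47 (SE, adjusted p = 0.0410 by edgeR). Fitted on the 11 libraries alone it was -2.94 ± 0.30 (SE, adjusted p = 0.00917 by edgeR).

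Because RNA was taken from whole embryos, fewer cells of a type and less RNA per cell cannot be told apart, here or for any gene below.

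A further fit took the spread within pairs into account where the data allowed it. At 7.5 hpf, same-numbered sibling and transgenic libraries deviated together from their group means, with correlations of 0.812, 0.336 and 0.760. At 5.5 hpf they did not (-0.177 and -0.201). With only 2 transgenic libraries at that time, their deviations mirror each other, so these values are a weak check of pairing. Numbers alone did not set the likeness at 7.5 hpf, since sibling replicate 2 with transgenic replicate 3 gave 0.789 and sibling replicate 3 with transgenic replicate 2 gave 0.383, both above the same-numbered pair 2. With the pairs as blocks except in the hs:wnt8a cross at 5.5 hpf, a fit chosen after seeing the data, 11 genes passed the test of the difference (0.0564%). The 9 downward ones were six7, six3b, tdgf1, sox2, he1.1, arr3b, fzd8a, gsc and fgf3, and the 2 upward ones her3 and si:ch211-170d8.2. Below, this is called the paired fit, and for these genes other than six3b the call rests on it, or on DESeq2, and not on the fit without pairs. Its spread is shared over all groups, so the errors at 5.5 hpf, where nothing was paired, rest partly on spread within pairs elsewhere. The SE of the early effect of tdgf1 went from 0.32 without pairs to 0.08, and that of gsc from 0.30 to 0.18.

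The gene with the next smallest p was six7 (ENSDARG00000070107), a related homeobox gene of the anterior neural plate and eye field known from zebrafish. Siblings held 13.8, 22.2 and 10.9 CPM at 5.5 hpf and 180.3, 232.9 and 232.7 CPM at 7.5 hpf. Transgenic embryos held 6.69 and 7.26 CPM at 5.5 hpf and 6.39, 3.67 and 4.56 CPM at 7.5 hpf. As with six3b, siblings stood far higher at 7.5 hpf than at 5.5 hpf and transgenic embryos did not, and the genotypes did not overlap at either time. The log2 fold change went from -1.17 ± 0.58 (SE) to -5.47 ± 0.57 (SE), a difference of -4.30 ± 0.76 (SE, adjusted p = 0.142 by edgeR). The adjusted p of this difference was 1.07e-04 by edgeR in the paired fit and 4.35e-04 by DESeq2. Fitted on the 11 libraries alone without pairs, the difference was -4.30 ± 0.40 (SE, adjusted p = 0.00697 by edgeR). With 1 library left out of the whole series, its adjusted p by edgeR ran from 0.123 to 0.961.

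Both genes were much lower in siblings at 5.5 hpf than at 7.5 hpf. For a second set the siblings were at a like level at both times, so that the change lay in the transgenic embryos. The Wnt receptor fzd8a (ENSDARG00000045444), a Frizzled gene of the anterior neural plate, stood at 78.1, 89.9 and 69.3 CPM in siblings at 5.5 hpf and at 81.9, 80.0 and 82.1 CPM at 7.5 hpf. In transgenic embryos it stood at 53.4 and 50.6 CPM, then at 18.8, 28.9 and 24.4 CPM. No transgenic library reached the lowest sibling at either time, and the gap was wider at 7.5 hpf. Its log2 fold changes were -0.60 ± 0.16 (SE) and -1.76 ± 0.14 (SE), and the difference of -1.15 ± 0.21 (SE) had an adjusted p of 0.142 by edgeR, of 0.0302 by edgeR in the paired fit and of 0.00129 by DESeq2. The paralogue fzd8b passed no such test. Its difference was -0.48 ± 0.29 (SE), with an adjusted p of 0.912 by edgeR in the paired fit.

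The neural progenitor factor sox2 (ENSDARG00000070913) followed the same course as fzd8a from a smaller early gap. Its siblings held 118.6, 110.8 and 103.3 CPM at 5.5 hpf and 89.6, 98.1 and 106.7 CPM at 7.5 hpf, and transgenic embryos 101.9 and 90.8 CPM, then 29.6, 42.8 and 41.8 CPM. At 5.5 hpf the higher transgenic library lay just under the lowest sibling, and at 7.5 hpf every transgenic library was under the lowest sibling by a wide margin. The log2 fold change went from -0.20 ± 0.19 (SE) to -1.36 ± 0.17 (SE). The difference was -1.16 ± 0.26 (SE, adjusted p = 0.674 by edgeR), and the paired fit gave an adjusted p of 0.00243 by edgeR.

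The homeobox repressor hesx1 (ENSDARG00000060734), also of the anterior neural plate, passed neither fit for its difference. Siblings held 31.7, 25.9 and 27.2 CPM and transgenic embryos 23.6 and 25.4 CPM at 5.5 hpf. At 7.5 hpf the values were 31.1, 25.6 and 19.3 CPM in siblings and 11.2, 10.4 and 12.5 CPM in transgenic embryos. The groups nearly touched at 5.5 hpf and were well separated at 7.5 hpf, where hesx1 fell by 1.15 on the log2 scale (SE 0.15, adjusted p = 7.28e-04 by edgeR). The difference of -0.95 ± 0.22 (SE) had an adjusted p of 0.818 by edgeR, and of 0.333 by edgeR in the paired fit.

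**Figure D2:**
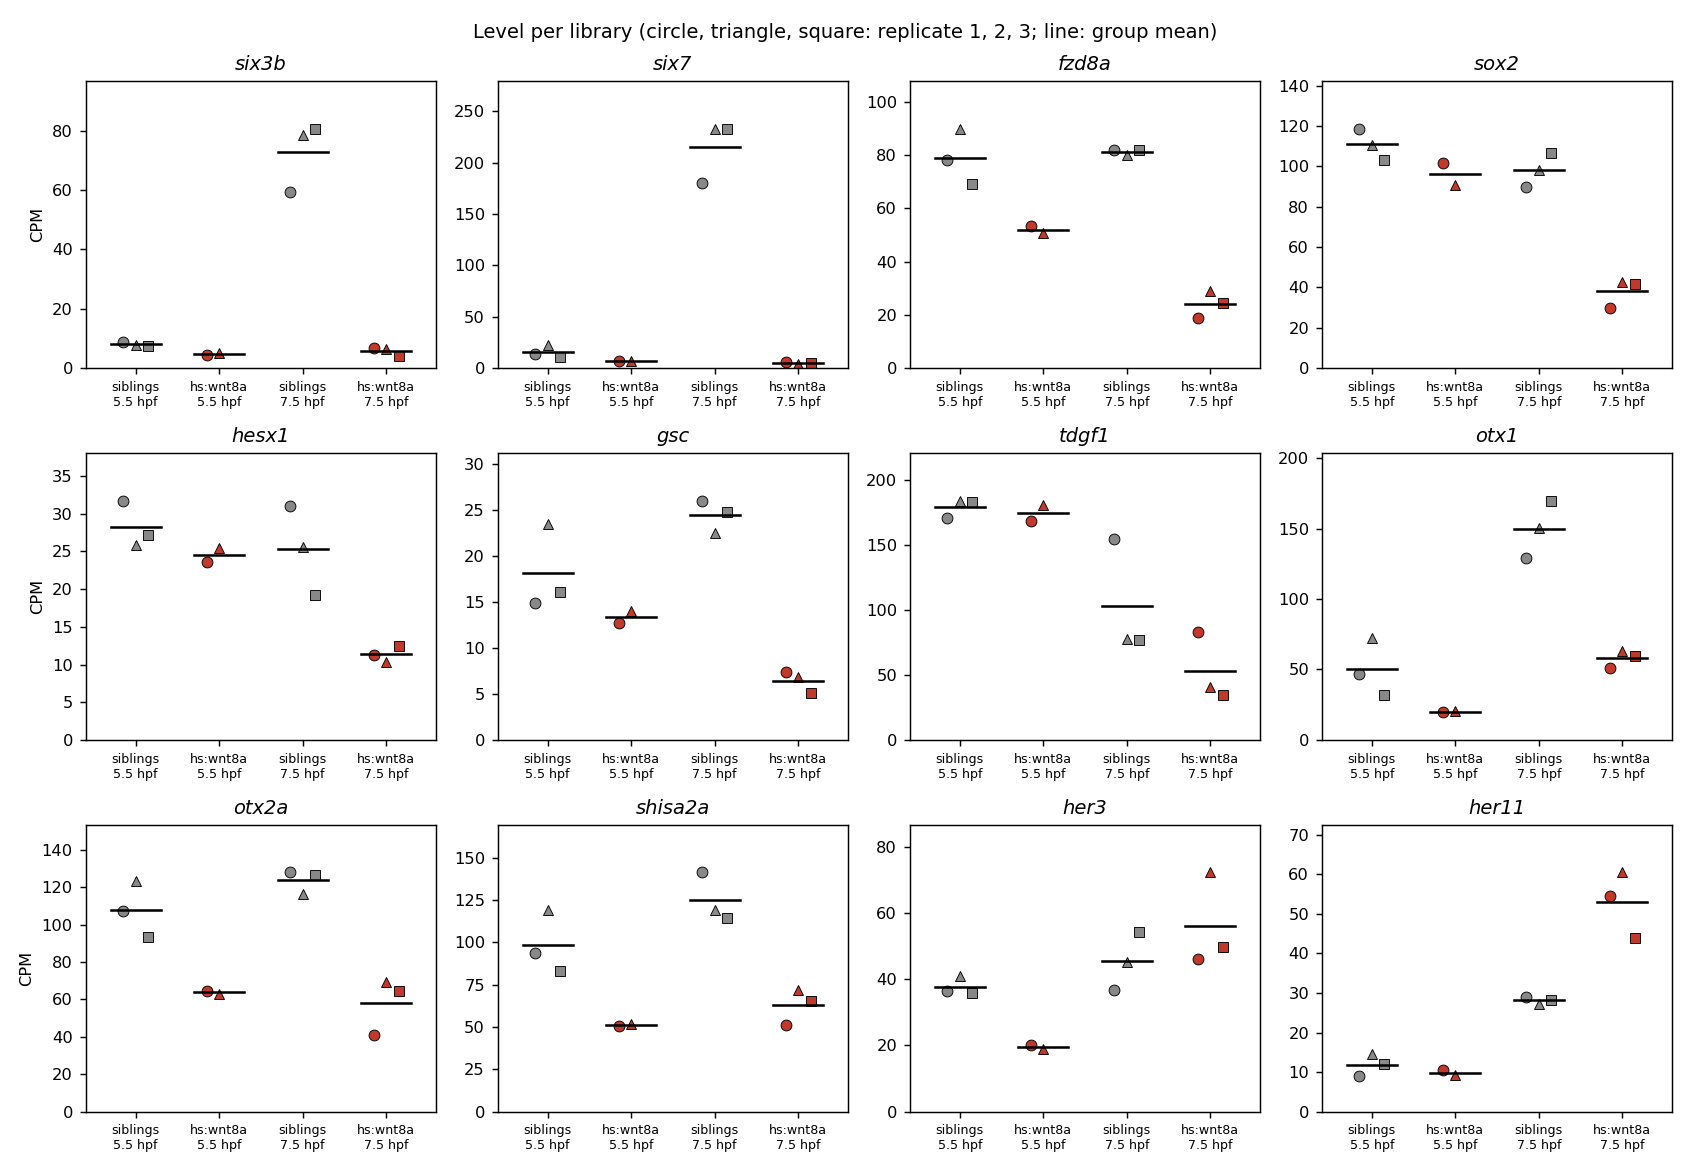
Level in CPM of 12 genes in each of the 11 libraries, with grey symbols for siblings, red symbols for hs:wnt8a embryos and a line for each group mean. For six3b and six7 siblings are far higher at 7.5 hpf and transgenic embryos are not. For fzd8a and sox2 siblings stay level and transgenic embryos are lower at 7.5 hpf. For otx1, otx2a and shisa2a the log2 fold change is similar at both times, while the gap in CPM is wider at 7.5 hpf.

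The organizer and axial genes had a median difference of 0.18 over 24 tested. At an unadjusted p under 0.05 by edgeR, gsc and he1.1 differed downward and the forkhead gene foxa2 upward. The repressor gsc (ENSDARG00000059073), which marks the organizer and the prechordal plate under the anterior neural plate, stood at 14.8, 23.5 and 16.1 CPM in siblings and 12.7 and 14.0 CPM in transgenic embryos at 5.5 hpf. At 7.5 hpf siblings held 26.0, 22.5 and 24.8 CPM and transgenic embryos 7.42, 6.81 and 5.12 CPM. The genotypes were close at 5.5 hpf and far apart at 7.5 hpf, where gsc fell by 1.92 on the log2 scale (SE 0.28, adjusted p = 0.00279 by edgeR). The difference was -1.48 ± 0.40 (SE, adjusted p = 1 by edgeR, and 0.0366 by edgeR in the paired fit).

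The Nodal co-receptor tdgf1 (ENSDARG00000035095) showed the likeness of same-numbered libraries. At 5.5 hpf siblings held 170.7, 184.4 and 183.6 CPM and transgenic embryos 168.6 and 180.7 CPM. At 7.5 hpf siblings held 155.0, 78.1 and 77.3 CPM and transgenic embryos 83.4, 41.0 and 34.3 CPM. Replicate 1 was high in both genotypes at 7.5 hpf, so the groups overlapped, yet in each of the 3 pairs the transgenic library was lower, with log2 ratios of -0.89, -0.92 and -1.16. The difference was -0.93 ± 0.43 (SE, adjusted p = 1 by edgeR) without pairs and -0.96 ± 0.11 (SE, adjusted p = 0.00103 by edgeR) in the paired fit. Without the 3 libraries that stood apart it was -1.02 ± 0.31 (SE).

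The hatching enzyme gene he1.1 (ENSDARG00000023656), of the hatching gland that forms from prechordal cells, was nearly absent from siblings at 5.5 hpf, with 1 count over 3 libraries. Transgenic embryos held 2.86 and 1.14 CPM at that time. At 7.5 hpf the order was the other way, with 1.42, 9.48 and 7.03 CPM in siblings and 0.121, 0.821 and 1.88 CPM in transgenic embryos. The values of replicate 3 of the transgenic embryos and replicate 1 of the siblings crossed, so the groups overlapped at 7.5 hpf. The difference had an adjusted p of 0.897 by edgeR without pairs and of 0.00657 by edgeR in the paired fit, and no fold is given for so few counts. Its near copy he1.2, named after its values were seen, ran the same way at lower levels, at most 0.418 CPM in any library at 5.5 hpf and up to 2.38 CPM in siblings at 7.5 hpf, and reads shared by near copies make both uncertain.

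Among signalling genes, the ligand fgf3 (ENSDARG00000101540) was at 11.0, 8.41 and 12.3 CPM in siblings and 11.6 and 13.5 CPM in transgenic embryos at 5.5 hpf. The later values were 4.25, 11.2 and 11.0 CPM in siblings and 2.59, 3.82 and 4.00 CPM in transgenic embryos. The groups overlapped at the earlier time and came close at the later one, where sibling replicate 1 was low. The difference of -1.59 ± 0.88 (SE) had an adjusted p of 1 by edgeR without pairs and of 0.0397 by edgeR in the paired fit. The arrestin gene arr3b, known from cone photoreceptors, was between 0.98 and 1.61 CPM in all 5 libraries at 5.5 hpf. Later it was at 2.89, 3.89 and 3.38 CPM in siblings and 0.302, 0.628 and 0.456 CPM in transgenic embryos, a difference of -2.97 ± 0.69 (SE, adjusted p = 0.889 by edgeR, and 0.00933 by edgeR in the paired fit).

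**Figure D3:**
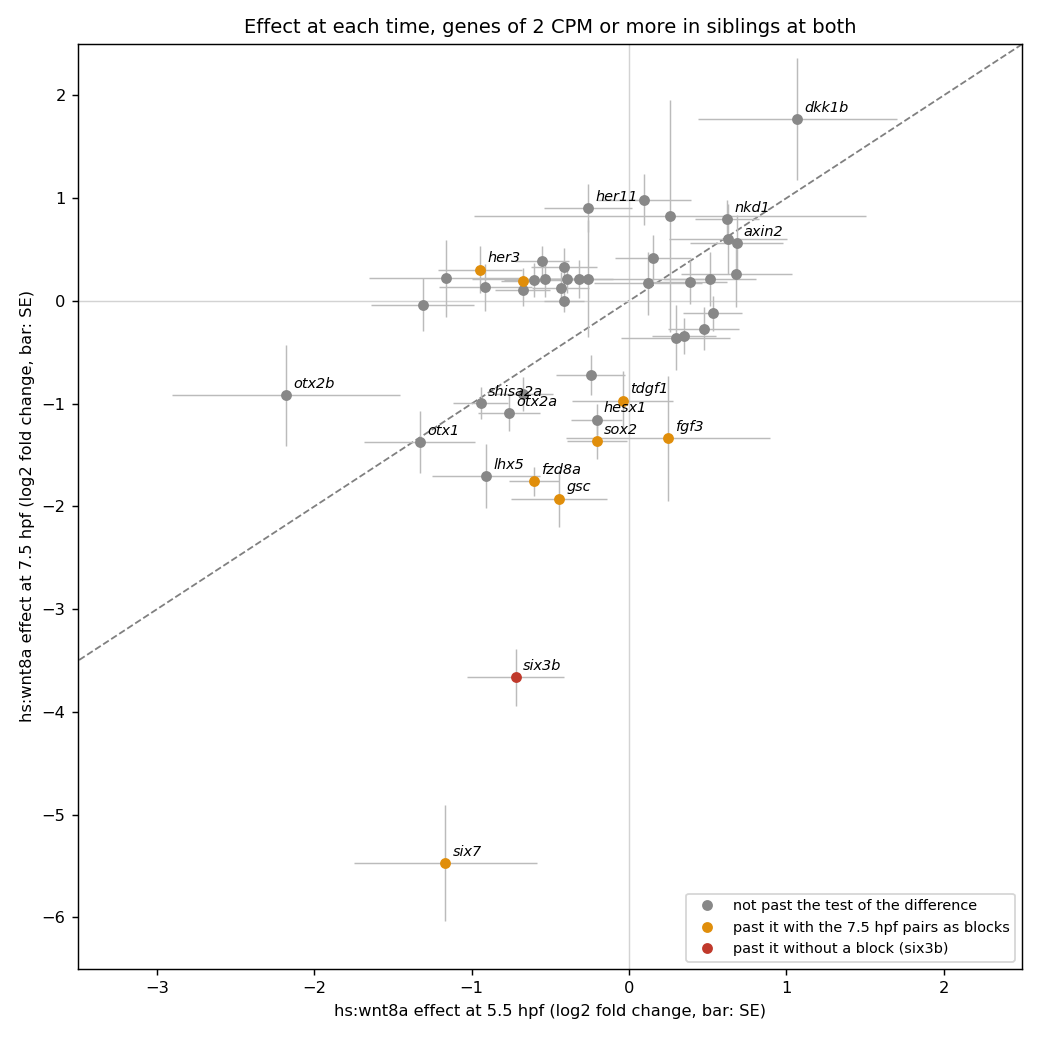
Log2 fold change of hs:wnt8a embryos over siblings at 5.5 hpf (horizontal) against that at 7.5 hpf (vertical), with standard errors, for the named genes with at least 2 CPM in siblings at both times. Although they meet this level, slc6a16a and odf3l2a are not drawn. Their differences were 5.01 and 6.29 with all libraries, and 0.74 and 0.02 without the 3 libraries that stood apart. On the dashed line the effect is equal at both times; six3b (red) and six7, fzd8a, sox2, gsc, tdgf1 and fgf3 (orange) lie below it, and her3 and si:ch211-170d8.2 (orange) above.

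The effect at each time sets the scale for these differences. At 7.5 hpf 18 genes were called and all of them fell (0.0923% by edgeR). Other fits also called upward genes at this time. DESeq2 called 28, of which 3 were higher, and the fit on the 11 libraries alone 11, of which 1 was higher. With every same-numbered pair as a block 74 were called, 19 of them higher. At 5.5 hpf edgeR called 0 genes and DESeq2 5, all lower. An unadjusted p under 0.05 by edgeR was reached by 648 genes (3.32%), again below a share of 0.05. Of the 18 genes that fell at 7.5 hpf, 10 had a sibling mean of at least 2 CPM at 5.5 hpf. In all 10, every transgenic library was already below every sibling library at 5.5 hpf, which held for 12.8% of the 12917 genes at that level. The 10 were six7, six3b, gsc, fzd8a, lhx5, sox2, hesx1, otx2a, shisa2a and zgc:77158.

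For part of this group the 95% interval of the difference included 0, which does not show that the effects were equal. The homeobox gene otx2a (ENSDARG00000030703), which marks the forebrain and midbrain territory, stood at 107.5, 123.2 and 93.4 CPM in siblings and 64.6 and 62.9 CPM in transgenic embryos at 5.5 hpf. By 7.5 hpf the values were 127.8, 116.1 and 126.7 CPM in siblings and 40.8, 69.1 and 64.3 CPM in transgenic embryos. The log2 fold changes were -0.76 ± 0.20 (SE) and -1.09 ± 0.17 (SE, adjusted p = 0.00730 by edgeR), and the difference was -0.33 with a 95% interval from -0.87 to 0.21, or -0.21 without the 3 libraries that stood apart. For shisa2a (ENSDARG00000034138), whose protein holds back Frizzled and FGF receptors inside the cell, the fold changes were -0.94 ± 0.18 (SE) and -0.99 ± 0.15 (SE, adjusted p = 0.00534 by edgeR). The interval of its difference ran from -0.53 to 0.43, around -0.05 with all libraries, and its value was 0.02 without the 3 that stood apart.

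Another gene of the same family, otx1 (ENSDARG00000094992), passed the test at neither time. Siblings held 46.7, 72.6 and 31.6 CPM and transgenic embryos 19.7 and 20.3 CPM at 5.5 hpf. At 7.5 hpf siblings held 129.2, 150 and 169.8 CPM and transgenic embryos 51.0, 63.1 and 59.5 CPM. The level was about as many times higher at 7.5 hpf in either genotype, and the difference was -0.04 ± 0.45 (SE, 95% interval -0.98 to 0.90), or -0.42 ± 0.48 (SE) without the 3 libraries that stood apart. The third member, otx2b (ENSDARG00000011235), differed the other way, by 1.26 ± 0.87 (SE, 95% interval -0.56 to 3.08). Its early value leaned on sibling replicate 2 at 5.5 hpf, with 17.0 CPM against 5.98 and 4.00 CPM in the other siblings and 2.30 and 1.68 CPM in transgenic embryos. Without the 3 libraries that stood apart the difference of otx2b was 0.61 ± 0.86 (SE).

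The LIM homeobox gene lhx5 (ENSDARG00000057936), of the anterior forebrain, had log2 fold changes of -0.91 ± 0.34 (SE) and -1.71 ± 0.31 (SE, adjusted p = 0.0244 by edgeR). Siblings held 51.1, 77.5 and 45.5 CPM at 5.5 hpf and 58.7, 29.4 and 31.8 CPM at 7.5 hpf, and transgenic embryos 32.4 and 29.4 CPM, then 20.3, 8.69 and 7.96 CPM. The gene zgc:77158, of no role stated here, had log2 fold changes of -0.68 ± 0.19 (SE) and -0.91 ± 0.16 (SE, adjusted p = 0.0244 by edgeR) and a difference of -0.23 (95% interval -0.75 to 0.29), or -0.57 ± 0.22 (SE) without those 3 libraries. For lhx5, the high library of each sibling group was one of those that stood apart. Its difference was -0.80 ± 0.45 (SE, adjusted p = 1 by edgeR) with all libraries and -1.23 ± 0.25 (SE) without those 3.

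The other 8 genes that fell at 7.5 hpf were at a sibling mean under 2 CPM at 5.5 hpf, so the early effect on them was poorly measured and their difference says little. They were the eye field and forebrain genes rx3, lhx2b, fezf2, pax6b and six3a, the homeobox gene nkx2.7, the bHLH gene olig2 and arr3b. The eye field regulator rx3 (ENSDARG00000052893) was at 0.129, 0.671 and 0 CPM in siblings and 0 and 0.0672 CPM in transgenic embryos at 5.5 hpf. The 7.5 hpf values were 39.4, 59.3 and 63.8 CPM in siblings and 1.45, 2.32 and 2.33 CPM in transgenic embryos. The gap at 7.5 hpf was wide, and the interval of the difference spanned -10.75 to 6.86. Without the 3 libraries that stood apart the difference of rx3 was -3.90 ± 4.85 (SE) against -1.95 ± 4.21 (SE) with them, that of pax6b -1.71 against -1.06 and that of six3a -1.83 against -1.05. The zinc finger gene fezf2 (ENSDARG00000070677), of the anterior forebrain, was at 0.407 to 1.22 CPM in siblings at 5.5 hpf and at 35.2, 57.0 and 56.7 CPM at 7.5 hpf. In transgenic embryos it was at 0.181, 0.628 and 0.659 CPM at 7.5 hpf. Its difference of -4.57 ± 3.09 (SE) had a 95% interval from -11.03 to 1.89.

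Siblings held at most 1 count of lhx2b in a library at 5.5 hpf and 1.87, 15.3 and 15.5 CPM at 7.5 hpf, against at most 0.152 CPM in transgenic embryos. For pax6b siblings held 1.16, 2.93 and 1.08 CPM at 5.5 hpf and 38.7, 71.0 and 65.7 CPM at 7.5 hpf, against 4.88, 5.55 and 11.2 CPM in transgenic embryos. The paralogue of six3b, six3a, stood at 0.813 to 2.26 CPM in siblings and 0.697 and 0.672 CPM in transgenic embryos at 5.5 hpf, and at 1.75 to 2.38 CPM and 0.406 to 0.724 CPM at 7.5 hpf. The heart and endoderm gene nkx2.7 was at 1.32, 2.92 and 2.24 CPM in siblings and at most 0.304 CPM in transgenic embryos at 7.5 hpf. The early gap of pax6b, with 0.139 and 0.739 CPM in transgenic embryos, rests on 13 counts in those libraries. Among these 8, the 95% interval of the difference excluded 0 for arr3b and for olig2, the latter at -1.97 ± 0.64 (SE, adjusted p = 1 by edgeR). Its siblings held 0.450 to 1.16 CPM at 5.5 hpf and 6.63, 11.0 and 11.4 CPM at 7.5 hpf, and its transgenic libraries 0.906 and 0.605 CPM, then 1.99, 2.90 and 2.79 CPM.

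Upward differences passed the paired fit for her3 and si:ch211-170d8.2. The Hairy-related repressor her3 (ENSDARG00000076857), which holds back neurogenesis between the proneural domains of the zebrafish neural plate, stood at 36.3, 41.0 and 35.8 CPM in siblings and 20.1 and 19.0 CPM in transgenic embryos at 5.5 hpf. By 7.5 hpf it stood at 36.7, 45.0 and 54.3 CPM in siblings and 46.1, 72.2 and 49.7 CPM in transgenic embryos. The transgenic libraries were lower without overlap at 5.5 hpf and overlapped the siblings at 7.5 hpf. The difference was 1.25 ± 0.35 (SE, adjusted p = 1 by edgeR, and 0.0221 by edgeR in the paired fit). The clone-named gene si:ch211-170d8.2 had 40.5, 45.5 and 39.3 CPM in siblings and 26.7 and 25.7 CPM in transgenic embryos at 5.5 hpf. At 7.5 hpf its values were 37.7, 41.8 and 46.2 CPM and 40.5, 55.7 and 47.7 CPM, a difference of 0.87 ± 0.18 (SE, adjusted p = 0.668 by edgeR, 0.0397 by edgeR in the paired fit and 0.0443 by DESeq2).

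Genes of the midbrain and midbrain-hindbrain boundary gave the highest median difference of the 25 gene lists, 0.28 over 23 members tested, against 0.02 over all genes. The median log2 fold change of the list was -0.06 at 5.5 hpf and -0.007 at 7.5 hpf, so the list as a whole was not raised at either time. Differences of single members ran from -2.92 to 4.83. Of these members 0 passed the test, and 3, all upward, had an unadjusted p under 0.05 by edgeR (her11, her5 and irx7), against 1.1% upward of all genes. The boundary repressor her11 (ENSDARG00000002707) was at 9.00, 14.5 and 12.1 CPM in siblings and 10.5 and 9.28 CPM in transgenic embryos at 5.5 hpf. At 7.5 hpf it was at 29.1, 27.3 and 28.3 CPM in siblings and 54.5, 60.5 and 43.8 CPM in transgenic embryos, with no overlap. The difference was 1.17 ± 0.37 (SE, adjusted p = 1 by edgeR). Its neighbour in function her5 was level at 5.5 hpf, at 6.95 to 8.54 CPM in all 5 libraries, and at 7.5 hpf stood at 23.5, 26.6 and 30.4 CPM in siblings and 47.4, 70.07 and 41.7 CPM in transgenic embryos. The homeobox gene irx7 differed by 0.56 ± 0.24 (SE), or 0.37 ± 0.26 (SE) without the 3 libraries that stood apart, and its groups were apart at 5.5 hpf and overlapped at 7.5 hpf.

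The remaining upward genes with the smallest p had other roles. For retreg2, a reticulon-like protein of the endoplasmic reticulum, siblings held 8.42, 9.27 and 6.98 CPM and transgenic embryos 5.43 and 5.78 CPM at 5.5 hpf. At 7.5 hpf the order was turned, with 6.38, 7.78 and 8.26 CPM in siblings and 8.93, 10.3 and 10.1 CPM in transgenic embryos, and neither time showed an overlap. The difference was 0.94 ± 0.22 (SE, adjusted p = 0.897 by edgeR). The secreted kinase gene pkdccb, spata2, the BMP receptor gene bmpr2a, peli1b, ripk1l and b3gnt9 had differences from 0.60 (peli1b) to 1.27 (bmpr2a), all with an adjusted p of 1 by edgeR. That of ripk1l was 0.74 ± 0.26 (SE) and, without the 3 libraries that stood apart, 0.39 ± 0.26 (SE). In each of these 6 the transgenic libraries were below all siblings at 5.5 hpf and not at 7.5 hpf. They were chosen by a small p of an upward difference, which favours a low early value. At 5.5 hpf 12.8% of the 12917 genes with a sibling mean of at least 2 CPM lay below all siblings. The transporter gene slc6a16a had a difference of 5.01 ± 1.68 (SE), which came from sibling replicate 2 at 5.5 hpf with 78.4 CPM against 0.557 to 0.881 CPM in the other 4 libraries. Without the 3 libraries that stood apart it was 0.74 ± 0.49 (SE). The same sibling library was high for rab7b, a gene of vesicle traffic, with 10.6 CPM against 2.69 to 4.50 CPM in the other 4, and its difference was 1.38 ± 0.62 (SE) with the 3 libraries and 0.73 ± 0.65 (SE) without them.

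Among the downward genes chosen by p, pdxka, a pyridoxal kinase, and ddias and glmna had small effects of opposite sign at the times. For pdxka the transgenic libraries held 2.44 and 2.82 CPM against 1.097 to 1.67 CPM in siblings at 5.5 hpf, and 2.05, 2.32 and 3.14 CPM against 2.63 to 4.25 CPM at 7.5 hpf. Its difference of -1.37 ± 0.52 (SE), that of ddias of -0.65 ± 0.25 (SE) and that of glmna of -0.69 ± 0.27 (SE) all had an adjusted p of 1 by edgeR. For asb11, an ankyrin repeat gene with 162.6 to 257.8 CPM in the 5 libraries at 5.5 hpf, the difference was -0.65 ± 0.47 (SE), or -0.43 ± 0.56 (SE) without those 3 libraries, and the groups overlapped at that time.

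Targets and feedback inhibitors of the Wnt pathway showed no difference between times that these libraries could resolve. Of the 30 list members tested 0 passed, 1 (sp8a, at most 1.61 CPM in any library) had an unadjusted p under 0.05 by edgeR, and the median difference was -0.09. The feedback scaffold axin2 (ENSDARG00000100149) was at 148.4, 141.1 and 172.4 CPM in siblings and 256.7 and 237.8 CPM in transgenic embryos at 5.5 hpf. At 7.5 hpf it was at 174.2, 93.6 and 121.5 CPM in siblings and 287.2, 175.8 and 111.6 CPM in transgenic embryos. The groups were apart at the earlier time and overlapped at the later one. The log2 fold changes were 0.68 ± 0.30 (SE) and 0.56 ± 0.27 (SE), and the difference of -0.12 had a 95% interval from -0.96 to 0.72.

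The feedback inhibitor nkd1 (ENSDARG00000020053), which acts on Dishevelled, was apart at both times. Siblings held 92.9, 59.7 and 93.7 CPM and transgenic embryos 122.3 and 130.7 CPM at 5.5 hpf, and 59.7, 54.1 and 58.6 CPM and 117.8, 92.3 and 89.2 CPM at 7.5 hpf. Its fold changes of 0.62 ± 0.20 (SE) and 0.80 ± 0.19 (SE) did not pass the test, and the difference was 0.17 (95% interval -0.41 to 0.75). The direct target sp5a had a difference of -0.02 (95% interval -1.08 to 1.04) and its relative sp5l of 0.27 (95% interval -0.41 to 0.95). With the 3 libraries that stood apart left out, these differences were -0.23 for sp5a, 0.41 for sp5l and -0.21 for axin2. The secreted antagonist dkk1b stood at 60.0, 45.0 and 72.8 CPM in siblings and 143.7 and 104.7 CPM in transgenic embryos at 5.5 hpf. At 7.5 hpf it stood at 22.5, 15.7 and 25.2 CPM and at 67.8, 88.3 and 59.8 CPM. The groups did not overlap at either time, and the difference was 0.70 (95% interval -1.12 to 2.52).

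Posterior and border genes lay in the same range. The neural plate border gene msx1b differed by -0.30 (95% interval -1.12 to 0.52) and the posterior neural gene gbx1 by -0.42 (95% interval -1.42 to 0.58). The caudal homeobox gene cdx4 differed by -0.21 (95% interval -0.88 to 0.46) and the mesodermal T-box gene tbxta by 0.05 (95% interval -0.91 to 1.01). The notochord gene noto, with 54.5 to 58.2 CPM in siblings and 44.3 and 46.6 CPM in transgenic embryos at 5.5 hpf, overlapped at 7.5 hpf and differed by 0.53 (95% interval -0.06 to 1.12). The hindbrain gene hoxb1b differed by 0.48 (95% interval -1.48 to 2.43), and gbx2 stayed under 1 CPM in every library, at 0.05 (95% interval -2.06 to 2.16). With those 3 libraries left out, the difference was -0.54 for msx1b, -0.07 for tbxta, -0.14 for hoxb1b and -0.94 for gbx2. Values within these intervals, which are not adjusted over genes, were not excluded.

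**Figure D4:**
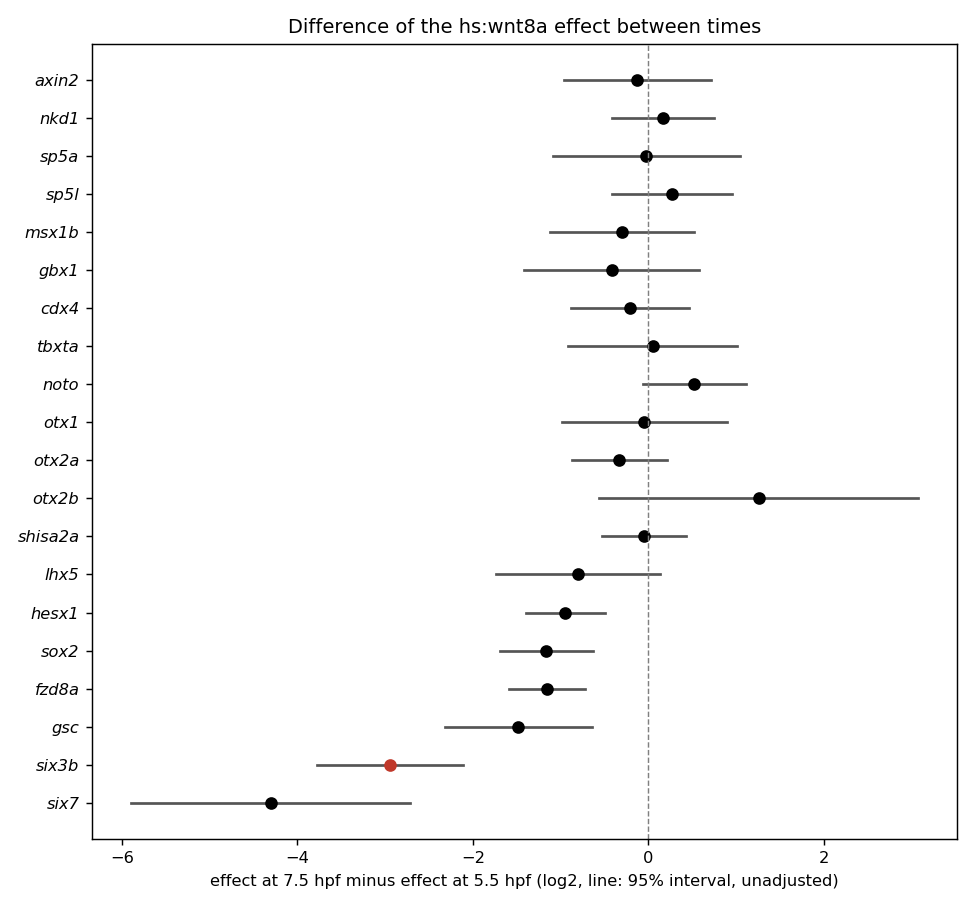
Difference of the hs:wnt8a effect, 7.5 hpf minus 5.5 hpf, on the log2 scale for 20 genes, with 95% intervals not adjusted over genes. Intervals of the Wnt targets and posterior genes (axin2 to noto) and of otx1, otx2a, otx2b, shisa2a and lhx5 include 0, those of hesx1, sox2, fzd8a, gsc, six3b and six7 lie below it, and six3b (red) passed the test over all genes.

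Over all genes the median difference was 0.02, and 0.641% lay downward and 1.1% upward at an unadjusted p under 0.05 by edgeR. The forebrain list held the 1 call and a median of -0.36 over 23 of its 28 members tested, with six3b, six7 and hesx1 at an unadjusted p under 0.05 by edgeR. The eye field list had a median of -0.54 over 11 of 17 members tested and 0 members at that level. Pan-neural genes had sox2 downward and her3 upward among 19 tested. Organizer and axial genes had gsc and he1.1 downward and the forkhead gene foxa2 upward (0.75 ± 0.28, SE) among 24 tested, with a median of 0.18. Nodal and endoderm genes had tdgf1 downward and foxa2 upward among 20 tested. Notch pathway genes had hey1 downward (-0.75 ± 0.31, SE) and her3 and her5 upward among 28 tested, and FGF genes the receptor gene fgfr4 upward (0.42 ± 0.17, SE) among 23. Without sibling replicate 2 at 5.5 hpf the difference of fgfr4 was 0.25.

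Elsewhere members that crossed an unadjusted p of 0.05 by edgeR mostly had few counts. In the hindbrain list mafbb did so downward, at most 0.680 CPM in any library, beside irx7 upward, and in the posterior hox list hoxa9a, with 2 counts in all at 5.5 hpf. Border and placode genes had sox9b and six1b, at most 2.04 and 0.730 CPM. Of retinoic acid genes, the degrading enzyme cyp26c1 was at 0.129 to 0.488 CPM in all libraries at 5.5 hpf, and at 7.5 hpf at 2.94, 5.35 and 4.29 CPM in siblings and 0.241, 0.580 and 0.760 CPM in transgenic embryos. For 12 lists, the eye field among them, no member had an unadjusted p under 0.05.

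Markers of other cells and states were summed per library. Enveloping layer genes (24 tested, 0 called, median difference 0.05) summed to 21477 to 22302 CPM in siblings and 20858 to 21882 CPM in transgenic embryos at 5.5 hpf, and to 22689 to 23745 CPM and 22746 to 26033 CPM at 7.5 hpf. Yolk syncytial layer genes (21 tested, 0 called, median 0.01) summed to 7318 to 7650 CPM and 7457 to 7948 CPM, then to 8542 to 9185 CPM and 8889 to 10312 CPM. The ranges of the genotypes overlapped at each time in both lists. Heat-shock chaperones (25 tested, 0 called, median -0.003) were higher in transgenic embryos at 5.5 hpf, at 67542 to 68661 CPM against 47640 to 63517 CPM, and overlapped at 7.5 hpf, at 34364 to 48859 CPM against 30938 to 49211 CPM.

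Maternal transcripts (23 tested, 0 called, median -0.10) summed to 3267 to 3997 CPM in siblings and 4082 to 4254 CPM in transgenic embryos at 5.5 hpf, without overlap, and overlapped at 7.5 hpf. Germ cell genes (16 tested, 0 called, median -0.10) summed to 323.1 to 505.5 CPM and 515.5 to 563.8 CPM at 5.5 hpf, again without overlap, and overlapped at 7.5 hpf. Blood and endothelial genes (11 tested, 0 called, median -0.33) were at 253.1 to 272.1 CPM and 277.4 to 284.0 CPM at 5.5 hpf, and overlapped at 7.5 hpf. In these 3 lists and the chaperones the transgenic libraries at 5.5 hpf stood slightly above all siblings. The sum over all genes tested had the same order, at 1075800 to 1127400 CPM in siblings and 1129000 to 1132900 CPM in transgenic embryos. On this scale that sum follows from the TMM factors, so it is no separate observation. Among the other lists, the sums of Wnt targets, of midbrain genes and of caudal and posterior hox genes also lay above all siblings at 5.5 hpf. Those of hindbrain, pan-neural, FGF and retinoic acid genes lay below all siblings at that time. The maternal and germ cell lists share symbols, dazl among them, so their sums are not independent. The part of the scaling and of these shifts in the differences was not tested.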

How the data were processed

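Each library has a table of 31743 genes deposited by the authors, and its column of whole numbers was taken as read counts. The TPM and RPKM columns deposited by the authors are length-scaled and were not used. The submitters' processing notes name edgeR and the build GRCz11. The aligner, the counter and any strand setting are not given in the sources consulted, so overlapping genes and near copies are uncertain. The gene name table held 28988 of these genes, and 3944 symbols shared by several identifiers were numbered. The 23 libraries of all 8 groups, which share 1 estimate of the spread, were fitted with edgeR 4.0.16 (R 4.3.3): TMM scaling, filterByExpr (19504 genes), the quasi-likelihood F test and Benjamini-Hochberg adjustment at a threshold of 0.05. The wnt8a genes were left out of counts afterwards. The standard error of a log2 value is its size over the root of its F statistic. CPM was computed from the counts with TMM factors. Alternatives were DESeq2 1.42.0, RLE scaling, no filter, fewer libraries and replicate blocks. The procedure was tested on simulated data.

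Replicates 1 and 3 of siblings at 5.5 hpf and 2 and 3 at 7.5 hpf differed least within a group, with a chi-square per degree of freedom of 2.88 and 3.30, above sampling noise, so none was treated as a copy. Same-numbered libraries were checked for pairing by the correlation of their deviations from the group means, with every pair over 0.1 as the condition. It was met in the hs:wnt8a cross at 7.5 hpf and not at 5.5 hpf. The paired fit has 9 residual degrees of freedom against 15 without pairs.

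Members and the 25 gene lists (579 symbols, 38 without a match) were chosen with earlier results of these data known. Named genes are the 10 with the smallest p in each direction of the difference, among genes with a mean log2 CPM of at least 1 and no clone name, up to 2 members of each list at an unadjusted p under 0.05, up to 8 in each direction from the fit with every pair as a block, a panel of 20 patterning genes, and all calls of a fit that makes 5 or fewer. Named after their values were seen were lhx5, shisa2a, pax6b, lhx2b, nkx2.7, zgc:77158, he1.2, arr3b, hsp70l, her5, fzd8b and odf3l2a.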

Additional observations from a re-analysis of the deposited data

Results flagged for a closer look

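The effect of hs:wnt8a on six3b differed between the times by a test of the difference itself, -2.94 on the log2 scale (SE 0.40, adjusted p = 0.00946 by edgeR), with transgenic embryos below siblings in all 5 transgenic libraries at both times and a wider gap at 7.5 hpf. Over the 18 alternatives its adjusted p by edgeR or DESeq2 ran from 1.68e-08 to 0.220, and it passed in 15.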

How the results depend on the processing

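The count of 1 gene became 4 with DESeq2, 2 with only the 11 libraries of the hs:wnt8a crosses (six7 and six3b) and 0 to 2 when 1 library was left out, with 2 (six3b and fzd8a) without transgenic replicate 2 at 7.5 hpf. RLE scaling, no filter on low counts and leaving out the 3 libraries that stood apart each gave 1, six3b. The 18 genes at 7.5 hpf became 28 with DESeq2, 11 with the 11 libraries and 10 to 18 with 1 library left out, the fewest without transgenic replicate 2 at 7.5 hpf. The 0 at 5.5 hpf became 5 with DESeq2 and stayed 0 with any 1 library left out. With every same-numbered pair as a replicate block, the pairs at 5.5 hpf included although they did not deviate together, the counts were 19 for the difference, 74 at 7.5 hpf and 113 at 5.5 hpf. With the block except at 5.5 hpf the difference had 11. Under that full block the difference turned sign for otx1 (0.177) and shisa2a (0.0465). It turned for gbx2 with the partial block (-0.0371), and without the 3 libraries for gbx2 (-0.940), hoxb1b (-0.137), tbxta (-0.0697) and shisa2a (0.0174). With 1 library left out, genes whose difference turned ranged from -0.620 to 0.286 for sp5a, -0.535 to 0.158 for axin2, -3.90 to 0.559 for rx3, -0.404 to 0.212 for otx1, -0.785 to 0.448 for gbx2, -0.00812 to 0.830 for hoxb1b, -0.265 to 0.376 for tbxta, -0.209 to 0.0797 for shisa2a, -1.79 to 0.559 for pax6b and -0.128 to 10.3 for odf3l2a. None of these passed the test in the fit with all libraries, and the cause was not tested. Leaving out sibling replicate 3 or either transgenic library at 5.5 hpf ended the call of six3b.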

Other observations

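The gene odf3l2a, which encodes a protein of sperm tail fibres and was picked after its values were seen, was high only in the 3 libraries that stood apart on the second principal component. It was at 35.2 CPM in sibling replicate 2 at 5.5 hpf and at 21.7 and 20.6 CPM in the replicate 1 libraries of siblings and transgenic embryos at 7.5 hpf, against at most 0.507 CPM in the other 8. Its difference between times was 6.29 ± 3.01 (SE) with all libraries and 0.02 ± 1.27 (SE) without those 3.

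The heat-shock gene hsp70l was at 241.5, 256.9 and 334.1 CPM in siblings and 340.8 and 322.6 CPM in transgenic embryos at 5.5 hpf, and at 239.1, 155.6 and 206.8 CPM and 296.0, 542.6 and 226.2 CPM at 7.5 hpf. Replicate 2 of the transgenic embryos at 7.5 hpf, whose omission moved the counts of calls most at that time, held the highest value.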
